A study of Mus musculus with 2 samples.

Results

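The 5 antigen receptor loci of the mouse and their surroundings were followed through a pair of Foxa2 HiChIP libraries from liver. The bins were chosen by position, as every 50 kb bin that lies inside 5 windows of the mm10 genome. The windows themselves were chosen with earlier results of these data known. The windows were 112500001 to 116500000 on chromosome 12 (Igh, the immunoglobulin heavy chain locus), 66500001 to 71500000 on chromosome 6 (Igk, the kappa light chain), 18500001 to 20000000 on chromosome 16 (Igl, the lambda light chain), 40000001 to 42500000 on chromosome 6 (Trb, the T cell receptor beta chain) and 51500001 to 55500000 on chromosome 14 (Tra/Trd, the alpha and delta chains). They held 340 of the 52685 bins of chromosomes 1 to 19 and X. Of these, 166 bins overlapped at least 1 variable (V), diversity (D), joining (J) or constant (C) segment and are called segment bins, and the other 174 are called flank bins. The segment bins numbered 56 in Igh, 62 in Igk, 4 in Igl, 9 in Trb and 35 in Tra/Trd. The RefSeq table lists 651 segments in the windows, with 520 V, 24 D, 90 J and 17 C segments, and 176 of all segments are pseudogenes.

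One library came from liver of wildtype mice given GW4064, a compound that activates FXR, the nuclear receptor for bile acids, and the other library from liver of wildtype mice given vehicle, a solution of propylene glycol and Tween 80. Both were collected 4 h after 1 oral gavage. HiChIP ligates DNA ends that lie close together in fixed chromatin and then recovers the ligated fragments with an antibody, here against Foxa2, a forkhead pioneer factor of liver. There was 1 library per group, so every difference below is between those libraries and not between the conditions, and all intervals are 95% intervals for counting error only. The labels name no strain, age or sex, and the number of animals behind each library is not given in the sources used.

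Antigen receptor genes are assembled in lymphocytes by V(D)J recombination, in which the RAG recombinase joins 1 V, in some loci 1 D, and 1 J segment out of long arrays. In cells of other lineages, hepatocytes among them, the arrays keep their germline order. The arrays grew by duplication, so that they hold many V segments of like sequence, and they differ in content between inbred mouse strains. The reference sequence used for mapping is that of C57BL/6J. Bulk liver also holds lymphocytes, and fewer contacts per cell and fewer cells with a contact cannot be told apart in bulk tissue.

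The GW4064 library held 29003442 contacts and the vehicle library 22686004. A bin of chromosomes 1 to 19 and X had a median of 983 contacts in the GW4064 library and 787 in the vehicle library. Same-bin contacts, the count nearest to local recovery by the antibody, did not set liver genes apart. The bins of the 12 hepatocyte marker genes had a median percentile of 34.1 among all bins in the GW4064 library and 60.4 in the vehicle library, those of the 10 B cell markers 41.8 and 40.5, and those of the 10 T cell markers 43.2 and 56.0. What follows therefore describes how many contacts reached each bin and not where Foxa2 was bound.

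The duplicated make-up of the arrays can be read from the sequences themselves. RefSeq (GRCm38.p6, the assembly called mm10) places 3 miRNA hairpins in the Igh segment bins and none in those of the other 4 loci. A pair of them, Mir7094-1 (chr12:114469407-114469466, minus strand) and Mir7094-2 (chr12:114513635-114513694, minus strand), lie among V segments of the Ighv1, Ighv8 and Ighv10 families, and they are shown because they are copies of each other within the stretch described below. The hairpins agree at 59 of 60 bases, and the differing base is in capitals.
Mir7094-1 hairpin: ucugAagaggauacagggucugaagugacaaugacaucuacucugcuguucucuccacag
Mir7094-2 hairpin: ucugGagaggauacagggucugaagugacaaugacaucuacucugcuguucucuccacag
The mature 3p miRNA is identical at both sites, and the mature 5p miRNAs differ within the seed (bases 2 to 8, in capitals).
mmu-miR-7094-3p, both hairpins: uACUCUGCuguucucuccaca
mmu-miR-7094-1-5p: uCUGAAGAggauacagggucuga
mmu-miR-7094b-2-5p: uCUGGAGAggauacagggucuga
On the other side of the stretch, among the D segments, lie Adam6a and Adam6b, paralogous genes of the ADAM family that act in sperm function. The promoter windows of both genes share a run of 199 identical bases, shown in capitals in that of Adam6a (chr12:113543658-113543957, plus strand). The same run lies at 113489315 to 113489513 in that of Adam6b.
Adam6a promoter: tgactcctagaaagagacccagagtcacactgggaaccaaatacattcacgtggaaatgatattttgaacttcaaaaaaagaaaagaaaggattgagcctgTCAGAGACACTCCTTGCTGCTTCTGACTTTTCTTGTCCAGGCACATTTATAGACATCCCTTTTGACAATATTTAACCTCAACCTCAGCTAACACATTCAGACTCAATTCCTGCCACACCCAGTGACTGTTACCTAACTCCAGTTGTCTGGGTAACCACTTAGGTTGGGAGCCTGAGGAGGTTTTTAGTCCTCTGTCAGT
At a bin size of 50 kb the copies of Mir7094 fall in neighbouring bins, as do Adam6b and Adam6a.

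The V array of Igh held more contacts in the GW4064 library, and by total contacts more so than any other 1 Mb window tested. Of all bins tested, 0.0571% were called higher in that library by total contacts, which needs at least 200 contacts over both libraries, a ratio of at least 1.5-fold after scaling to equal totals, and an interval that leaves out 1. These were 29 of 50780 bins. The Igh V array held 15 of them, the Tra/Trd array 3, and 11 lay outside the windows. No segment bin was called lower, where the background was 1.24%, or 631 bins. Among the 51158 windows of 20 bins (1 Mb) with enough contacts, the highest ratio lay inside the Igh array, with 23989 contacts in the GW4064 library and 13248 in the vehicle library (log2 ratio 0.52). By local contacts the highest Igh window had rank 5, with 6730 and 3110 contacts (0.60), after overlapping windows on chromosome 14 of which the first had 142 and 57 (0.81).

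The difference had a sharp start within the array. Igh runs from its constant genes to its J and D segments and then through V segments, from low to high coordinates on chromosome 12. The bins of the constant genes, the D and J segments and the first V segments were close in both libraries after scaling, with 7940 contacts in the GW4064 library and 6485 in the vehicle library over 8 bins (log2 ratio -0.04, interval -0.09 to 0.00). The bin of Ighm, the constant region of IgM, which also holds the 4 J segments, had 940 and 765 contacts (-0.04, -0.18 to 0.10), and the bin of Igha, the constant region of IgA, had 726 and 660 (-0.20, -0.35 to -0.05).

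The bin at 113600001 with Ighv6-1, Ighv2-3 and Ighv5-5 had 1033 contacts in the GW4064 library and 869 in the vehicle library (log2 ratio -0.09). Its neighbour at 113650001 with Ighv2-4, Ighv5-8 and Ighv5-9 had 929 and 491 (0.58). The ratio thus changed between adjacent bins that both carry members of the Ighv2 and Ighv5 families. From there on all 48 bins to 116050000, a run of 2.4 Mb, had a ratio above 0, with a range of 0.16 to 1.08. This run was chosen after its values were seen, as the longest run of bins above 0 in the window, so that its direction is fixed by the choice. In sum it held 58892 contacts in the GW4064 library and 33172 in the vehicle library, a log2 ratio of 0.49 (0.47 to 0.51). The labels name no strain, so treatment, library and any difference between the animals in the content of the array cannot be told apart here. The next bin, at 116050001, overlaps Vipr2, the gene of a receptor for vasoactive intestinal peptide, and the run ended there with the last V segments. The 2 bins of Vipr2 had 1766 and 1368 contacts (0.03, -0.07 to 0.13).

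**Figure D1:**
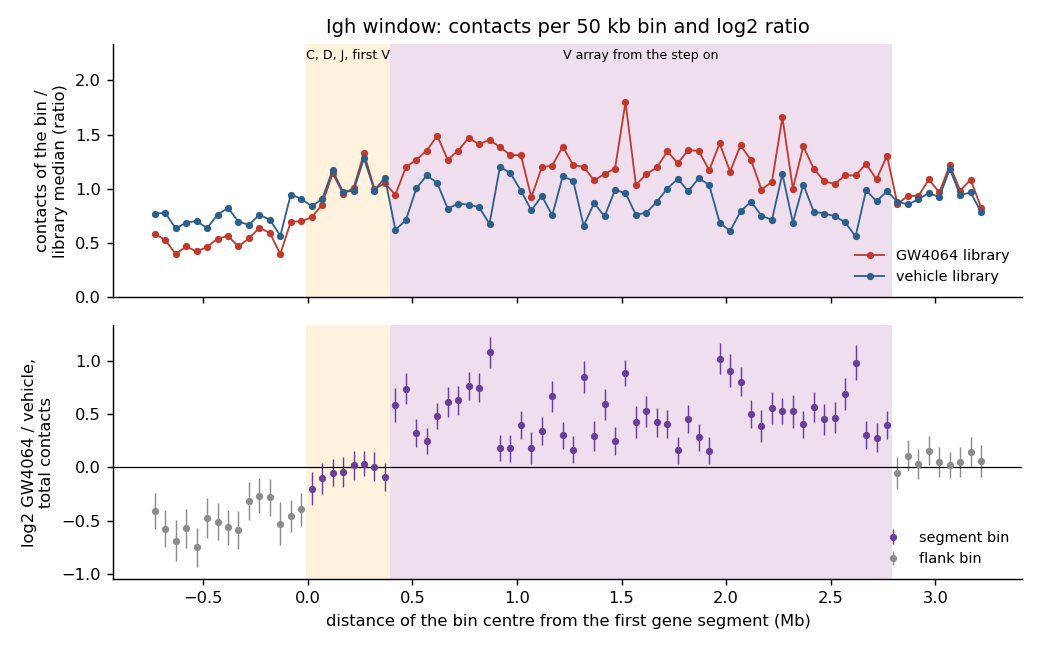
Upper panel: contacts of each 50 kb bin of the Igh window divided by the median bin of its library, against distance from the first gene segment, for the GW4064 and the vehicle library. Lower panel: log2 ratio of GW4064 over vehicle with its 95% counting interval, for segment and flank bins. The libraries run together over the C, D, J and first V bins, separate over the 48 V bins from the step on, and meet again past the array.

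Seen within each library, the 48 bins were rich in contacts in the one and poor in the other. They had a median of 1.22 times the library median in the GW4064 library, where 45 of 48 bins lay above it, and of 0.866 times in the vehicle library, where 13 of 48 did. The ranges overlapped between libraries, 0.922 to 1.80 in the GW4064 library and 0.562 to 1.20 in the vehicle library. Within every bin of the run the GW4064 value was the higher one, which was fixed by how the run was chosen. The size of the difference varied along the run in blocks. The bins from 113900001 to 114150000, which carry Ighv14, Ighv11 and Ighv9 members, had 0.62 to 1.08, and the next bins, at 114150001 and 114200001, had 0.19 and 0.18. A further high block held the bins of Ighv1-55 and Ighv1-56 (1394 contacts in the GW4064 library and 543 in the vehicle library, log2 ratio 1.02), of Ighv8-7 and Ighv1-57 (1140 and 481, 0.91) and of Ighv1-58 (1376 and 623, 0.81). The bin with Ighv8-16 and Ighv1-77 had 1105 and 442 (0.98). The bin with Ighv1-23 to Ighv1-26 held the most contacts of any segment bin in the GW4064 library, 1767, against 756 in the vehicle library (0.89).

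V families were followed by the bins of their members. A bin with members of more than 1 family counts for each, so family and position cannot be told apart. Ighv1, by far the largest family with 92 segments (32 of them pseudogenes), had a median log2 ratio of 0.45 over 33 bins with a range of 0.16 to 1.02. Ighv8, interspersed among the Ighv1 members, had 0.47 over 13 bins. Ighv5 and Ighv2 lie on both sides of the step, and their bins ranged from -0.09 to 0.74. The bins of Mir7094-1 and Mir7094-2, shown above, were at the low end of the run with 1366 contacts in the GW4064 library and 878 in the vehicle library (0.30, 0.18 to 0.42) and with 1198 and 845 (0.17, 0.04 to 0.30). The bins of Adam6b and Adam6a lie before the step.

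The difference was present in every class of contact. All 56 Igh segment bins had log2 ratios of 0.54 (0.49 to 0.59) by same-bin and 0.49 (0.45 to 0.53) by local contacts. They had 0.37 (0.34 to 0.40) by farther and 0.37 (0.33 to 0.40) by trans contacts. The values of the run below are description only, since it was chosen by total contacts, which these classes add up to. Same-bin contacts of the run numbered 9284 in the GW4064 library and 4284 in the vehicle library, a log2 ratio of 0.65 (0.60 to 0.70) when scaled to all same-bin contacts. Local contacts, those with other bins up to 1 Mb away, numbered 15579 and 7422 (0.56, 0.52 to 0.60), and contacts farther along the chromosome 21437 and 12664 (0.43, 0.40 to 0.46). Contacts with other chromosomes, called trans contacts, numbered 12592 and 8802 (0.45, 0.41 to 0.48). Trans contacts with each of the 19 other chromosomes were more numerous in the GW4064 library, with log2 ratios from 0.22 to 0.70 and every interval above 0. For the 8 segment bins before the step, which the same choice left out, the ratio was above 0 for 5 of the 19 chromosomes. No interval of theirs lay above 0.

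Sorted by partner and scaled to total contacts, contacts with both ends in the run had larger ratios than those with 1 end in it. Pairs of different bins of the run had log2 ratios of 0.75 (0.70 to 0.81) up to 1 Mb and of 0.94 (0.74 to 1.14) beyond. Contacts between the run and the rest of the chromosome had 0.48 (0.34 to 0.62) up to 1 Mb, 0.39 (0.32 to 0.46) from 1 to 10 Mb and 0.39 (0.35 to 0.43) farther away. Over all bins, local contacts made up 27.3% of contacts in the GW4064 library and 24.2% in the vehicle library. Those beyond 1 Mb on the chromosome made up 35.8% and 35.9%. At this scaling, ratios up to 1 Mb are thus raised over all bins as well. Coverage of the bins was not taken into account, and it enters at both ends of a pair inside the run.

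**Figure D2:**
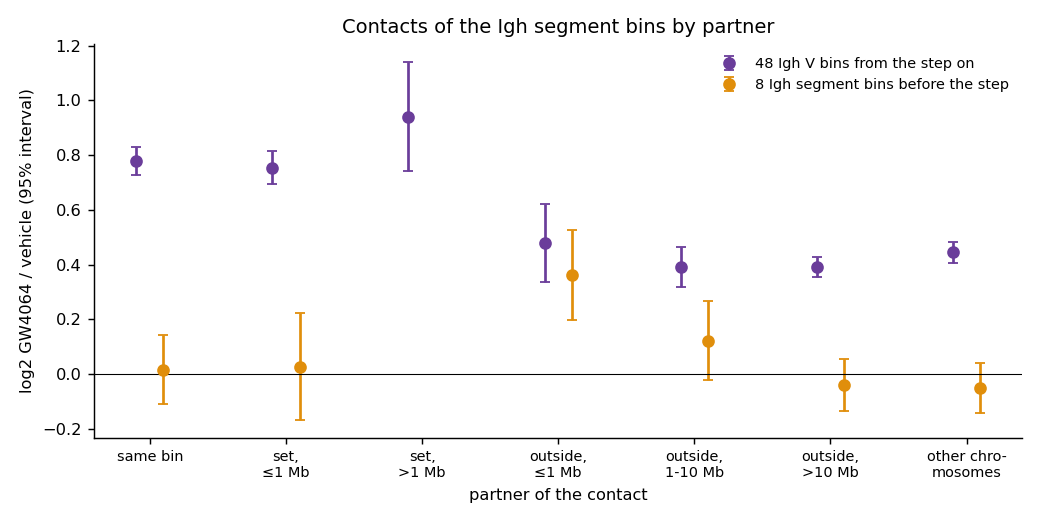
Log2 ratio of GW4064 over vehicle contacts, with 95% counting intervals, by partner of the contact, for the 48 Igh V bins from the step on and the 8 segment bins before it. Contacts on the chromosome were scaled to total contacts and those with other chromosomes to trans contacts. The 48 bins, chosen by their ratio of total contacts, lie above 0 for every partner, highest for pairs inside the set. The other 8 bins have intervals that hold 0 for every plotted partner except bins outside the set within 1 Mb. Scaled to total contacts, the same-bin and local contacts of all bins also lie above 0. Other chromosomes are plotted together.

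A single bin of the run, from 114100001 to 114150000 with Ighv12-1, Ighv9-2, Ighv12-2 and Ighv9-3, had the highest trans ratio of the 49270 bins tested. It had 600 trans contacts in the GW4064 library, against 176 in the vehicle library (log2 ratio 1.70). They were spread over 596 partner bins in the GW4064 library and over 174 in the vehicle library. No partner bin took more than 2 of them in either library. By total contacts the bin had 1426 and 534, and the ratio of 1.08 was the highest in the run.

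The flanks of Igh differed between their sides. On the side of the constant genes lie 15 gene-rich bins with Akt1, a kinase of insulin signalling, and Crip1, a LIM-domain protein gene, and they had 7887 contacts in the GW4064 library and 8713 in the vehicle library (log2 ratio -0.48, -0.52 to -0.44). All 15 were below 0. The bin of Akt1 had 461 and 542 contacts (-0.57, -0.75 to -0.39), and the bin that holds both Crip1 and Tmem121 had 685 and 745 (-0.46, -0.61 to -0.31). On the V side the 9 flank bins had 8745 and 6613 (0.07, 0.02 to 0.11). Their same-bin contacts gave 0.21 (0.09 to 0.34), with 7 of 7 bins above 0, and their local contacts 0.12 (0.02 to 0.23), with 8 of 9 above 0. By total contacts the window therefore held, from low to high coordinates, a stretch below 0, a stretch near 0, the V bins above 0 and a stretch slightly above 0.

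In Tra/Trd the higher counts of the GW4064 library lay in part of the array. Its 35 segment bins had 24592 contacts in that library and 17780 in the vehicle library (log2 ratio 0.13, 0.10 to 0.16). In the reference, a block of Trav genes was copied in series, and the copies bear the letters d and n beside the original genes. The 15 bins with d or n copies had 6300 contacts in the GW4064 library and 3793 in the vehicle library (log2 ratio 0.40, 0.34 to 0.45; 0.20 without the 3 bins called higher), and the other 20 segment bins had 18292 and 13987 (0.05, 0.02 to 0.08). Much of the copied block was nearly empty in both libraries. The bins at 52850001, 52900001 and 52950001, with Trav9d-3 and Trav12d-2 among others, had 79, 58 and 100 contacts in the GW4064 library and 27, 18 and 38 in the vehicle library. The matching n bins at 53150001, 53200001 and 53250001 had 74, 55 and 77 in the GW4064 library and 63, 52 and 66 in the vehicle library. These 6 bins are the segment bins of the 5 loci with under 200 contacts over both libraries, and they did not enter the calls. Short reads from near-identical copies often cannot be placed, and how such reads were treated is not known from the labels. Its part in these values was not tested.

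The 3 Tra/Trd bins called higher lie between those gaps, where d copies meet n copies. The bin at 53050001 with Trav13d-4 and Trav7n-4 had 756 contacts in the GW4064 library and 259 in the vehicle library (log2 ratio 1.21), and its neighbour with Trav9n-1, Trav10n and Trav11n had 709 and 248 (1.18). Both were moderately covered in the GW4064 library and sparse in the vehicle library. The third, at 53000001 with Trav5d-4 and Trav16d-dv11, had 231 and 119 (0.62). The bin of the original genes Trav10, Trav11 and Trav12-1, which ends at 53550000 and does not adjoin these bins, had 765 and 569 (0.09). The 20 segment bins without d or n copies ranged from -0.25 to 0.35.

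The alpha and delta constant regions had ratios below 0 after scaling to library totals. The bin of Trac, the alpha constant region, which also holds Traj1 and part of Dad1, had 850 contacts in that library and 803 in the vehicle library (log2 ratio -0.25, -0.40 to -0.11), and the bin of Trdc, the delta constant region, had 721 and 642 (-0.17, -0.33 to -0.01). The 25 bins beyond, from Dad1, a subunit of the oligosaccharyltransferase, onward, all had a ratio below 0 and summed to -0.29 (-0.32 to -0.27). At the other end of the array, the bin of Trav1, which shares it with an olfactory receptor gene, had 1034 and 864 (-0.08, -0.21 to 0.05), and the 18 flank bins below it summed to -0.04 (-0.07 to 0.00). Mettl3, the catalytic subunit of the RNA m6A methyltransferase, lies in that flank and had 2004 and 1650 contacts in its 2 bins (-0.06, -0.15 to 0.04).

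**Figure D3:**
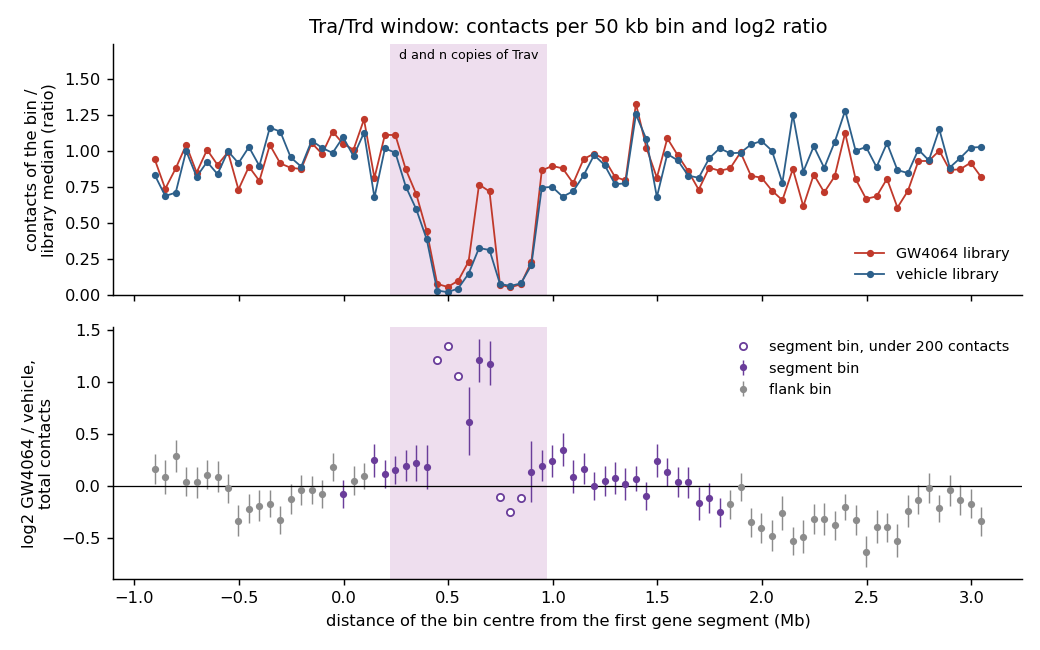
Contacts per 50 kb bin relative to the library median (upper panel) and log2 ratio of GW4064 over vehicle (lower panel, 95% counting intervals) along the Tra/Trd window, by distance from the first gene segment. Open circles are bins with under 200 contacts. Inside the shaded block of d and n copies both libraries fall close to 0 in 2 gaps, and the bins between the gaps are covered in the GW4064 library and sparse in the vehicle library.

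Igk showed a smaller and even difference. Its 62 segment bins had 78054 contacts in the GW4064 library and 54938 in the vehicle library, a log2 ratio of 0.17 (0.15 to 0.19). All 62 bins lay above 0, between 0.00 and 0.35, and none was called. The lowest was the bin of Igkc, the kappa constant region, which also holds the J segments, with 1196 and 946 contacts (0.00, -0.12 to 0.13). Igkv4, the largest V family with 33 segments, had a median of 0.18 over 19 bins. Among the other families with at least 6 bins, the medians ran from 0.11 for Igkv12 (8 bins) to 0.21 for Igkv14 (6 bins), and differences between families were not tested. By local contacts, the highest segment bin held Igkv8-31 to Igkv8-28 with 310 and 153 (0.51, 0.23 to 0.80), and the lowest held Igkv3-5 to Igkv3-2 with 225 and 173 (-0.13, -0.42 to 0.16).

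The Igk flank bins had a log2 ratio of -0.04 (-0.06 to -0.02). On the side of the constant gene, all 15 bins lay below 0 and summed to -0.14 (-0.18 to -0.11). Rpia, an enzyme of the pentose phosphate pathway, had 1063 contacts in its bin in the GW4064 library and 975 in the vehicle library (-0.21, -0.34 to -0.09). Fabp1, the fatty acid binding protein of liver, had 1655 and 1552 over its 2 bins (-0.24, -0.35 to -0.14), and its local contacts gave -0.46. Eif2ak3, the stress kinase PERK, had 2948 and 2498 over 3 bins (-0.10, -0.18 to -0.02), and Cd8a, a coreceptor of T cells, had 971 and 822 (-0.10, -0.23 to 0.04). The liver gene and the T cell gene of this flank thus had overlapping intervals.

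Igl and Trb are short arrays with small ratios. The 4 Igl bins had 4843 contacts in the GW4064 library and 3508 in the vehicle library (log2 ratio 0.13, 0.07 to 0.19), from the bin of Iglc1, Iglc3 and Iglv1 with 1147 and 869 (0.06) through that of Iglc2 with 1227 and 896 (0.12) to that of Iglv2 with 1205 and 837 (0.19). The Igl flank differed by side, with -0.21 (-0.25 to -0.17) over the 11 bins on the low side and 0.09 (0.05 to 0.12) over the 14 bins on the high side. On the low side lie 857 and 876 contacts in the bin of Cldn5, a tight junction protein (-0.37, -0.51 to -0.23), and 3311 and 2787 in the 3 bins of Hira, a histone chaperone (-0.09, -0.16 to -0.02). The 9 Trb bins had 10805 and 7908 (0.11, 0.07 to 0.16), and the Trb flank had 0.06 (0.04 to 0.08). The bin of Trbv31, which lies past the constant regions, was highest with 1096 and 708 (0.29, 0.16 to 0.43). The bin of Trbc1, Trbc2 and Prss2, an anionic trypsinogen gene, had 1272 and 941 (0.10, -0.02 to 0.22), that of Trbv1 had 1222 and 924 (0.07, -0.06 to 0.19), and that of Ephb6, a receptor of the ephrin family past the array, had 1018 and 856 (-0.09, -0.22 to 0.05).

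Values outside the windows give the scale for these ratios. Over the genome, bins that lie in stretches of 21 bins free of protein-coding genes had a log2 ratio of 0.16, the 566 olfactory receptor bins 0.11 and the 323 vomeronasal receptor bins 0.12. Igk, Igl, Trb and Tra/Trd segment bins, at 0.17, 0.13, 0.11 and 0.13, were near these values. All 56 Igh segment bins together, at 0.42 (0.40 to 0.43), were above them. The Igh run had 0.49, but it was chosen by these same ratios. Within Tra/Trd, the bins of the d and n copies summed to 0.40 and the other 20 segment bins to 0.05 (0.02 to 0.08). Without the 3 called bins the copies had 4604 contacts in the GW4064 library and 3167 in the vehicle library, a ratio of 0.20 (0.14 to 0.27).

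**Figure D4:**
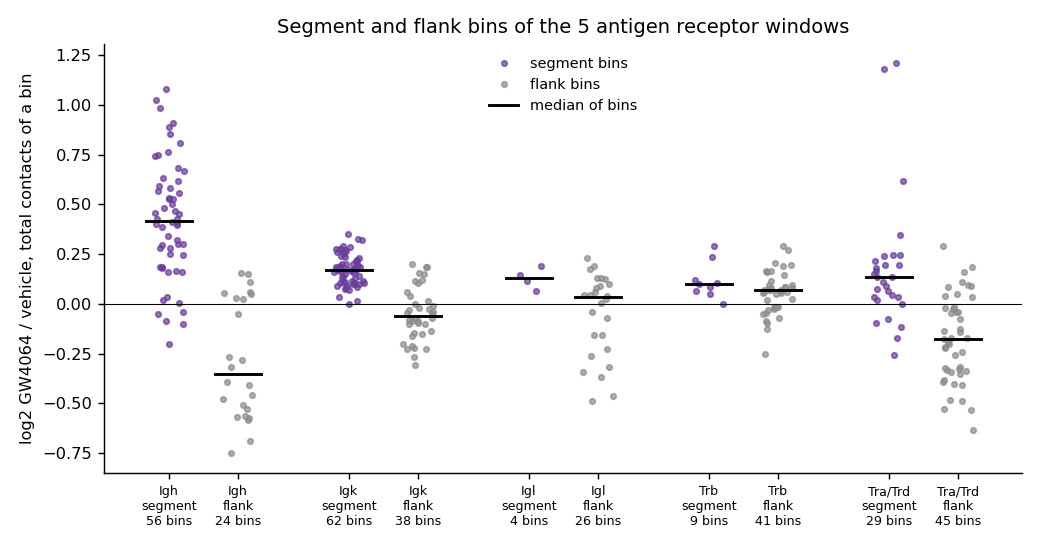
Log2 ratio of GW4064 over vehicle total contacts of each bin with at least 200 contacts, for segment and flank bins of the 5 windows, with the median as a line. Igh segment bins spread widely above 0 and Igh flank bins mostly below it, while Igk, Igl and Trb segment bins keep to a narrow band.

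Calls by local contacts fell on Igh as well, and in Tra/Trd on other bins. Over the genome 0.226% of 49090 bins were called higher and 3.19% lower. Of 153 segment bins tested, 24 were called higher, 22 in Igh and 2 in Tra/Trd, and none was called lower. Both Tra/Trd bins, with Trav2 and Trav3-1 and with Trav6-4 and Trav7-4, lie outside the d and n copies, of which 2 of 15 bins had enough local contacts to be called. Of 166 flank bins tested, none was called higher and 7 lower, 4 of them in Igh. The Igh bin with Ighv1-8, Ighv15-2 and Ighv1-9 had the highest local ratio, with 313 contacts in the GW4064 library and 107 in the vehicle library (1.04, 0.72 to 1.37). By total contacts no flank bin was called higher (background 0.0571%) and 4 of 174 were called lower (background 1.24%), 3 in Igh and 1 in Tra/Trd. By same-bin contacts 25 of 136 segment bins were called higher, 24 of them in Igh, where the background was 0.667%, and none was called lower, where it was 1.4%. By contacts over 1 Mb on the chromosome, 14 of 159 were called higher (background 0.0739%) and none lower (2.12%). By trans contacts 16 of 157 were called higher (background 0.268%) and none lower (0.741%). These were 12 bins of Igh, 2 of Igk and 2 of Tra/Trd.

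Set against their flanks within each library, the arrays differed in level. In the GW4064 library the median segment bin of Igh had 1180.5 contacts and the median flank bin 607.5, a ratio of 1.94, and in the vehicle library 696 and 615, a ratio of 1.13. For Igk the ratio was 1.20 in the GW4064 library and 1.01 in the vehicle library, for Igl 1.16 and 1.05, and for Trb 1.00 and 0.988. Tra/Trd had 0.937 in the GW4064 library, where the counting interval of the log2 ratio of median bins (-0.23 to 0.05) holds 0, and 0.760 in the vehicle library. By local contacts Tra/Trd had 0.639 and 0.444, and by contacts over 1 Mb on the chromosome it was above its flank, at 1.34 and 1.08.

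The share of trans contacts was lowest in Igk and Trb and highest in Igl in both libraries. Trans contacts made up 13.4% of the contacts of Igk segment bins in the GW4064 library (exact Clopper-Pearson interval 13.1% to 13.6%) and 17.2% in the vehicle library (16.9% to 17.5%). For Trb they made up 15.3% and 19.3%, for Tra/Trd 20.99% and 27.2%, for Igh 21.8% and 27.1%, and for Igl 26.4% and 32.6%. Over all bins the share was 21.3% and 25.6%. Igk and Trb, both on chromosome 6, were thus low in trans contacts in both libraries, in segment and in flank bins alike. Their flank bins had 17.5% and 17.6% in the GW4064 library and 20.5% and 20.9% in the vehicle library. Igl flank bins, with 26.6% and 32.8%, were close to the Igl array too. Chromosome 16, which holds Igl, had 500016 trans contacts of 2012494 in the GW4064 library and 468699 of 1549925 in the vehicle library. Chromosome 6 had 598683 of 3114756 and 562623 of 2443446. The order of the loci is therefore not particular to the arrays.

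At matched distance, contacts inside an array and contacts out of it differed. Pairs of bins up to 1 Mb apart were set against the mean of all pairs at that distance. Within the Igh array 8339 contacts were observed in the GW4064 library, 1.22 times the expected number (1.19 to 1.24), and 4104 in the vehicle library, 0.854 times (0.828 to 0.880). When the coverage of both bins entered the expected number, the Igh array had 0.865 times in the GW4064 library and 1.07 times in the vehicle library, so that the order of the libraries turned round. Igk had 1.17 (1.15 to 1.20) and 1.03 (1.00 to 1.05), against 0.752 and 0.810 with coverage, and 0.949 in the vehicle library when the expected number came from the same chromosome. Igl had 1.03 and 0.976. In Trb 1737 contacts were observed in the GW4064 library where 1337 were expected, and 1126 in the vehicle library where 939 were. With coverage, Trb was below the expected number in the GW4064 library, at 0.938 times (0.895 to 0.983). In the vehicle library it had 0.990 times (0.933 to 1.05), an interval that holds 1. Pairs inside Tra/Trd were depleted, at 0.618 (0.590 to 0.647) in the GW4064 library and 0.516 (0.486 to 0.547) in the vehicle library, with the 6 nearly empty bins left out of the pairs.

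Pairs that joined an array with its flank fell short of the expected number at all 5 loci in both libraries. The ratio was 0.455 in the GW4064 library and 0.476 in the vehicle library for Igh, 0.553 and 0.617 for Igk, 0.882 and 0.749 for Igl, 0.888 and 0.917 for Trb and 0.426 and 0.478 for Tra/Trd. Relative to the number expected from distance, the long arrays thus had fewer contacts with their flanks than the short ones. With coverage in the expected number, Igh had 0.568 in the GW4064 library and 0.635 in the vehicle library. Igk had 0.463 and 0.528, Tra/Trd 0.548 and 0.544, Igl 0.720 and 0.651, and Trb 0.647 and 0.730. Igh and Igl were then close in the vehicle library.

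**Figure D5:**
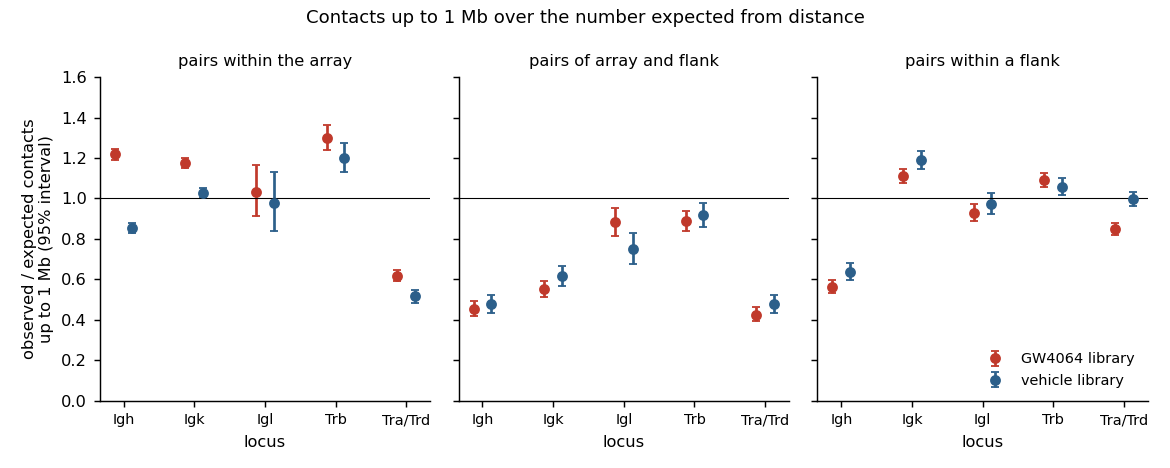
Contacts up to 1 Mb over the number expected from distance, with 95% counting intervals, for pairs within the array, pairs of array and flank and pairs within a flank of each locus, in the GW4064 and vehicle library. Pairs of array and flank lie below 1 at every locus, and pairs within the Igh array lie above 1 in the GW4064 library and below it in the vehicle library.

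The ends of the arrays were followed as borders, by the contacts between the 500 kb on each side of a bin border. The low end of Tra/Trd, at the bin of Trav1, had 122 contacts in the GW4064 library and 101 in the vehicle library, which is 0.266 and 0.316 times the number expected from distance. Of 49833 borders, 0.817% had a lower value in the GW4064 library and 1.03% in the vehicle library. With coverage in the expected number, the percentile was 0.0562 and 0.161. From distance alone, the low end of Igl lay at the percentiles 15.0 and 10.8. The border inside Hira, 2 bins before it, was the lowest within 2 bins of that end and lay at 2.25 and 3.67. The end of Igk past Igkc, next to Rpia, lay at 8.39 and 9.36, and with coverage at 0.702 and 1.23. The end of Igh past Igha lay at 4.44 and 7.92, but with coverage at 20.2 and 15.99. A border 2 bins further out, next to Crip1, lay at 0.311 and 0.831. At the ends of Trb the observed contacts were 0.786 and 0.924 times the expected number in the GW4064 library and 0.870 and 0.923 times in the vehicle library. With coverage they were 0.583 and 0.640 times in the GW4064 library and 0.698 and 0.714 times in the vehicle library, so that whether Trb was set off from its flanks depended on the expected number.

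The arrays lay mostly in the inactive compartment. The first eigenvector of the contacts was taken in 250 kb bins and oriented so that gene-rich chromatin is positive. Both libraries had negative values for 56 of 56 Igh, 64 of 64 Igk, 5 of 5 Igl and 15 of 15 Trb array bins. All counts here are of 50 kb bins. Bins inside the same 250 kb bin share its value, so the counts rest on fewer separate values. In Tra/Trd 7 array bins were positive, of 32 with a value in the GW4064 library and of 27 in the vehicle library. The flanks were mixed: 20 of 24 Igh flank bins were positive in the GW4064 library and 15 of 24 in the vehicle library, and 38 of 43 Tra/Trd flank bins in each. The Trb flanks, with 5 of 35 positive in each library, were mostly inactive like the array.

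Contacts between loci were few. Over the 9 pairs of whole windows on different chromosomes, flanks included, 160 contacts joined windows in the GW4064 library and 157 in the vehicle library. That is 0.936 (0.796 to 1.09) and 1.02 (0.869 to 1.20) times the number expected from the trans contacts of the bins. Segment bins alone had 47 and 40 contacts, 1.35 (0.990 to 1.79) and 1.53 (1.09 to 2.08) times that number. Against the number expected from the count of bin pairs they had 1.29 (0.948 to 1.72) and 1.15 (0.824 to 1.57) times. By whole windows, Igh and Igk had 46 and 34 contacts (1.38, 1.01 to 1.84, and 1.26, 0.872 to 1.76 times the number expected from trans contacts). Igk and Tra/Trd had 10 in the GW4064 library, 0.394 times the expected number (0.189 to 0.724), and 30 in the vehicle library, 1.20 times (0.807 to 1.71). This pair was picked after its values were seen, as the one whose intervals do not overlap between libraries. Igk and Trb share chromosome 6, and their windows had 1064 contacts in the GW4064 library and 804 in the vehicle library, 1.33 (1.26 to 1.42) and 1.24 (1.16 to 1.33) times the number expected from distance on that chromosome.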

How the data were processed

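Foxa2 HiChIP of mouse liver was measured in 1 GW4064 and 1 vehicle library. Per the submitters' processing notes, HiC-Pro and Bowtie2 2.2.9 were used with the mm10 assembly. How duplicates and multiply mapping reads were handled, and the version of HiC-Pro, is not given in the sources used. The authors' deposited matrices hold raw contact counts for pairs of 50 kb bins. Their deposited bin tables give an index of other unit, equal in both libraries.

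The windows, lists and rules were chosen with earlier results of these data known. Segments and genes came from the RefSeq table of GRCm38.p6. Total, same-bin, local (up to 1 Mb), farther and trans contacts were summed per bin over chromosomes 1 to 19 and X. Ratios were corrected for the class total of each library, with exact conditional binomial 95% intervals. Bins needed 200 contacts and 1.5-fold to be called. Expected contacts at matched distance used bins with at least 200 contacts. Intervals of observed over expected contacts are exact Poisson intervals. Intervals cover counting error only, and reads without molecular identifiers are not independent molecules. With 1 library per group no test and no p-value was possible.

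Always named were the constant and joining genes, the ends of the arrays and 14 flank genes. Per locus, the highest and lowest segment and flank bins by total contacts and by local ratio were added, from which examples are printed. The other bins named were chosen after their values were seen. The Igh run, the split by d and n copies, the partners, the array ends, the 1 Mb windows, the compartments and the sequences shown were also chosen after seeing the data. Coverage of 983 and 787 contacts per median bin (GW4064, vehicle) limits single bins to about the intervals given. Scripts ran on scipy 1.17.1, pandas 2.3.3 and numpy 2.4.6 under Python 3.11.15, and figures were drawn with matplotlib 3.10.9.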

Additional observations from a re-analysis of the deposited data

How the results depend on the processing

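No paired analysis was possible because each group holds 1 library. Of 90 values of segment over flank under another setting, 81 stayed within the counting interval of the log2 ratio of median bins. That interval does not hold the spread between bins. Some of the 81 could not move, so their number does not measure how stable the values are. The minimum of contacts per bin removed no bin of Igh, Igk, Igl or Trb. In Igh, every bin between the first and last segment was already a segment bin. With means in place of medians, the log2 ratio of Igh became 0.78 by total and 1.08 by local contacts in the GW4064 library and that of Tra/Trd became -0.30 in the GW4064 library and -0.60 in the vehicle library. Against flank bins with no protein-coding gene, Igh had 0.56 by total and 0.82 by local contacts in the GW4064 library and reversed to -0.036 by total contacts in the vehicle library, and Trb had -0.14 in the GW4064 library. With every bin between the first and last segment, Trb had 0.13 there.

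Among the log2 ratios of GW4064 over vehicle for segment bins, total contacts set against the median bin of the chromosome gave 0.38 in Igh, 0.15 in Igk and 0.086 in Tra/Trd, and local contacts 0.43 in Igh. Local contacts scaled to total contacts gave 0.66 in Igh, 0.35 in Igk, 0.37 in Igl, 0.29 in Trb and 0.37 in Tra/Trd, and the flanks reversed, to 0.0057 in Igh and 0.081 in Igk. Without the 48 bins of the run, Igh reversed to -0.045 by total and -0.0056 by local contacts. Without the d and n copies, Tra/Trd had 0.050 by total and 0.11 by local contacts. Both of these were added after the data were seen.

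At 1.3-fold in place of 1.5-fold, 36 segment bins were called higher by total and 46 by local contacts, 23 flank bins lower by total and 22 by local contacts, and by local contacts 1 segment bin lower and 1 flank bin higher. Over all bins 0.321% were higher and 6.81% lower by total and 2.93% and 9.45% by local contacts at that setting. With at least 400 local contacts, 0 flank bins were called lower (background 0.902%). Local contacts scaled to total contacts called 40 segment bins higher and 2 flank bins lower, where the background was 1.95% and 1.03%.

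Coverage in the expected number moved the log2 of observed over expected contacts inside the arrays, for the GW4064 and then the vehicle library, to -0.21 and 0.093 in Igh, -0.41 and -0.30 in Igk, -0.092 and -0.015 in Trb and -0.22 and -0.31 in Tra/Trd, and to -0.36 in Igl in the GW4064 library. The sign changed in Igh, Igk, Trb and Igl. Expected numbers from the same chromosome gave 0.12 and a reversal to -0.075 in Igk and 0.27 and 0.15 in Trb. Between loci on different chromosomes, segment bins alone gave 0.43 and 0.61 for all pairs together. Trb with Tra/Trd reversed to 0.25 in the GW4064 library, from a single contact, and 4 pairs with no contact gave no value. The causes of these shifts were not tested. With 1 library per group, treatment and library cannot be told apart, and counting intervals do not hold the spread between animals.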

Other observations

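Outside the windows, 11 bins were called higher in the GW4064 library by total contacts, and 6 of them lay on chromosome 17 between 90900001 and 93000000. The bin at 92300001 there had 1156 contacts in the GW4064 library and 353 in the vehicle library (log2 ratio 1.37), the highest ratio of all bins tested, and it holds no protein-coding gene. The window of 1 Mb from 91550001 had 26520 contacts in the GW4064 library and 15380 in the vehicle library (0.45), next to the Igh windows in rank among windows that do not overlap. The lowest window inside the antigen receptor windows was the first Mb of the Igh window, at -0.34.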
